A study of Mus musculus with 31 samples.

Results

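Guanylate-binding proteins (GBPs) and immunity-related GTPases (IRGs) were examined in irradiated and untreated mouse tumors. The 10 genes were chosen by name as Gbp2, Gbp3, Gbp4, Gbp5, Gbp6, Gbp7, Igtp, Irgm1, Irgm2 and Iigp1, out of 45802 gene names in the tables, and every one of them was found. No measured value was used as a criterion, but earlier results of these data were known when the genes were chosen. RNA came from RM9 tumors, grown from a mouse prostate cancer line transformed with ras and myc, and from MC38 tumors, grown from a mouse colon cancer line, both implanted under the skin of the right hind leg of young adult C57BL/6J males (labelled C57BL/6, WT). The 31 libraries came from 1 mouse each. In each model an untreated control group stood beside tumors collected 3 h, 12 h or 24 h after a single 15 Gy dose of radiotherapy (RT), with 4 mice in every group except RM9 RT 24 h, which had 3. The controls carried the 3 h time label and were shared by all 3 comparisons within a model, so RT and elapsed time cannot be told apart at 12 h and 24 h. Each line is a single transplanted cell line in 1 mouse strain, and the tissue sequenced held tumor cells together with host cells.

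GBPs and IRGs are GTPases that cells make in large amounts once interferon has bound its receptor, with interferon-gamma as the classical inducer, acting in part through IRF1, and type I interferon acting in part through STAT2 and IRF9. GBPs gather on the membranes of pathogen vacuoles and bacteria, break them open and feed inflammasomes and the LPS sensor encoded by Casp4. IRGs fall into regulatory members, which sit on host membranes and keep the others inactive there, and effector members, which load onto vacuoles lacking the regulators. In tumors they are read mainly as markers of interferon signaling in cancer cells, endothelium and myeloid cells.

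Values are given as deposited TPM (transcript abundance per gene length, scaled to the same total in every library). A fold change was called where the adjusted p of limma, fitted across all genes of the model, was under 0.05. All 10 genes passed the filter of a mean of at least 0.5 TPM in each model, with 13996 genes tested in RM9, 15680 in MC38 and 16121 across both. Depth, worked out from the ratio of deposited coverage to FPKM, was 21.4 to 29.4 M reads per library. The lowest RM9 values lie close to the added 0.5 TPM, which understates the fold changes of those genes.

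Gbp5 (chr3:142493978-142522344), Gbp7 (chr3:142530342-142550149), Gbp3 (chr3:142560026-142573209) and Gbp2 (chr3:142620602-142638008) lie in this order on the plus strand of chromosome 3. Gbp4 (chr5:105115767-105139586) and Gbp6 (chr5:105270702-105293698) lie on the minus strand of chromosome 5. Irgm1 (chr11:48861968-48871683, minus strand), Igtp (chr11:58199556-58207591) and Irgm2 (chr11:58199618-58222779) lie on chromosome 11, and Iigp1 lies apart from these. These positions are those of the deposited tables, which followed GRCm38 coordinates. Irgm2's interval covers Igtp on the same strand. Gbp6 appeared in 2 rows of each table, and both were summed.

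The start regions of these genes are shown because their levels rose and fell together over the libraries of each model. Interferon-activated factors are also known to bind near such starts. The RefSeq promoter table (GRCm38.p6, 250 bases before to 50 after each start) held 8 windows for 7 of the 10 genes, all but Gbp4, Gbp6 and Iigp1. The core of the interferon-stimulated response element (ISRE), GAAA, then any 2 bases, then GAAA, was searched on both strands, so that its reverse complement counts as a match. It was present in 7 of the 8 windows and at all 7 genes, against 3.44% of the 32851 windows of all genes and 5 of 8 windows of further GBP and IRG genes. Each stretch below runs 5′ to 3′ on the strand of its gene, with the matching bases in capitals.
Gbp2: cttttagTTTCACTTTCactgtct
Gbp3: gacacagTTTCAGTTTCTATTTCccagatc
Gbp5: tgtgtagTTTCAATTTCagtttag
Gbp7: tgtgcagTTTCAGTTTCagttctc
Irgm1: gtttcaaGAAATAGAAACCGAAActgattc
Igtp: aggaactGAAACTGAAAgctgttc
Irgm2: aggaactGAAACTGAAAgctgttc

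The stretches lie at chr3:142620597-142620620 for Gbp2, chr3:142559992-142560021 for Gbp3, chr3:142496762-142496785 for Gbp5, chr3:142530276-142530299 for Gbp7, chr11:48871428-48871457 for Irgm1, chr11:58199515-58199538 for Igtp and chr11:58214906-58214929 for Irgm2. In GENCODE M21 the stretches of Gbp7, Gbp3 and Igtp lie outside the gene, those of Gbp5 and Irgm2 lie in an intron of a longer transcript, Irgm1's lies in an exon of 1 of its 3 transcripts, and Gbp2's reaches in part into an exon of 1 of its 2. The first matching base lay 30 to 64 bases before the RefSeq start at 6 genes, and 165 bases before it at Gbp5. Gbp3 and Irgm1 each held 2 overlapping matches. The printed stretches of Igtp and Irgm2 are identical. TTCNNNGAA, the gamma-activated site (GAS) of interferon-gamma target genes, was found in windows of 4 of the 7 genes (Gbp5, Gbp7, Igtp and Irgm2), against 8.30% of all windows. A match in letters does not show that a factor was bound there.

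Untreated MC38 tumors carried far more GBP and IRG RNA than untreated RM9 tumors. Summed over the 10 genes, the controls stood at 891 ± 171 TPM in MC38 (SD, n = 4) and at 71.4 ± 18.5 TPM in RM9 (SD, n = 4), with ranges of 642 to 1006 and 45.6 to 85.4 TPM. All 10 genes were called higher in MC38, where 64.5% of all genes tested were, and the ranges of the 2 control groups did not overlap for any of the 10, against 50.7% of all genes lying wholly higher. The log2 differences ran from 3.13 for Gbp4 to 4.32 for Gbp5, which is 8.73-fold to 20.0-fold on the scale of TPM + 0.5, with a median of 3.57 beside a median of 0.62 over all genes. No more than 1.94% of the genes tested had a larger log2 difference than any 1 of the 10. In bulk tissue, more cells of an expressing type and more RNA per cell cannot be told apart. The model and any difference in sequencing run between RM9 and MC38 cannot be told apart either. The share of TPM taken by the mitochondrial transcript mt-Nd4l was 35.6 to 43.5% in RM9 and 12.9 to 29.6% in MC38. With deposited FPKM in place of TPM, which differs from TPM by 1 constant per library, the median log2 difference of the 10 genes was 3.13 beside 0.22 over all genes.

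**Figure D1:**
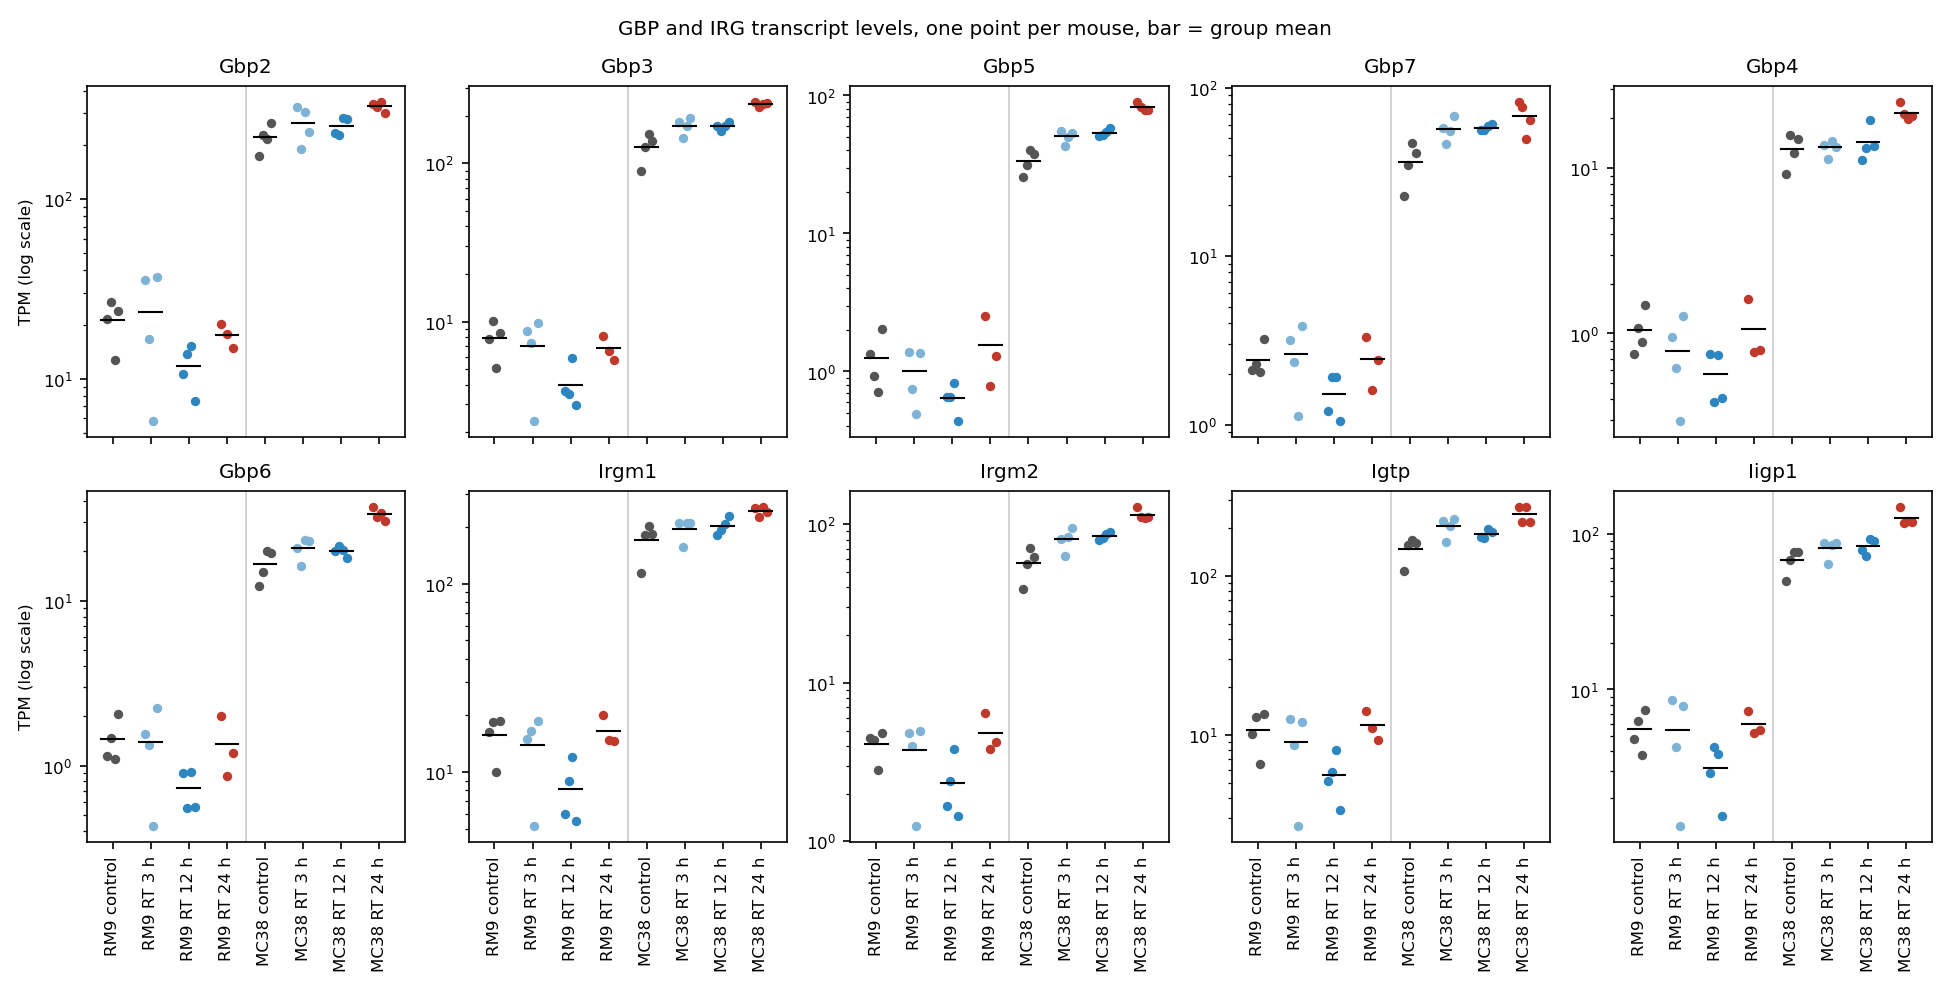
TPM of each of the 10 genes (log axis) in each of the 31 mice, grouped by model and time after RT; points are mice and bars are group means. All MC38 points lie above all RM9 points for every gene, and the MC38 RT 24 h mice all lie above the MC38 control mice.

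The order of the genes by level was similar in both models. In MC38 controls it ran from Gbp2 (220.3 TPM) through Irgm1 (171), Igtp (148), Gbp3 (127), Iigp1 (67.8), Irgm2 (57.0), Gbp7 (36.4), Gbp5 (33.7) and Gbp6 (16.7) down to Gbp4 (13.1 TPM). Neighbors in this order overlapped in range, except that Gbp3 stood wholly above Iigp1 and Gbp5 wholly above Gbp6. RM9 controls had the same first 7 genes in the same order, from Gbp2 at 21.1 TPM to Gbp7 at 2.42 TPM, followed by Gbp6, Gbp5 and Gbp4 at 1.45, 1.26 and 1.05 TPM, and there every neighbor overlapped with the next. The order between genes is firm only in part, because the ratio of deposited FPKM to deposited coverage, set to 1 at the value most genes of a library share, was 4.74 for Irgm1, 3.92 for Gbp5, 2.28 for Irgm2 and 1.00 for Gbp2 (medians of 31 libraries). Within a gene the ratio ran from 1.65 to 2.43 for Gbp4 and from 3.24 to 4.60 for Gbp5 over the libraries, and from 2.28 to 2.29 for Irgm2.

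All 10 genes rose in MC38 tumors by 24 h after RT, and none was called in RM9 tumors at any time. In MC38 at 24 h, 10 of 10 genes were called higher, where 13.2% of all genes tested were called higher, and for each of them every irradiated mouse stood above every control mouse, against 14.8% of all genes. The log2 fold changes ran from 0.55 (Irgm1) to 1.29 (Gbp5), with a median of 0.92 beside 0.22 over all genes. The summed level reached 1498 ± 89.7 TPM (SD, n = 4). The direction of all 10 was kept under the scalings that bring the median of all genes close to 0. Under median-ratio scaling the median of the 10 was 0.65 beside -0.02 over all genes and 7 were called, the exceptions being Gbp2, Gbp4 and Irgm1. With deposited FPKM it was 0.69 beside 0.01 and 8 were called, all but Gbp2 and Irgm1. With only the 2 compared groups in the fit 5 were called (Gbp3, Gbp5, Gbp6, Irgm2 and Iigp1). The 13.2% of all genes belongs to the fit of all MC38 groups on deposited TPM. The share of all genes called under the alternatives is not given here, so these counts cannot be set against it.

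Of the GBPs on chromosome 3, Gbp5 had the largest fold change of the 10 in MC38 at 24 h. Gbp5, which promotes assembly of the NLRP3 inflammasome, stood at 25.5, 31.5, 39.9 and 37.9 TPM in the MC38 control mice, at 55.5, 42.9, 50.1 and 53.3 TPM at 3 h, at 50.5, 51.6, 54.5 and 58.6 TPM at 12 h and at 89.8, 82.6, 78.0 and 78.1 TPM at 24 h. All irradiated mice lay above all control mice at each of the 3 times, and the 24 h mice lay above all others. Its log2 fold change was 0.59 ± 0.13 (SE) at 3 h, which did not pass (adjusted p = 0.0737), then 0.69 ± 0.13 at 12 h (adjusted p = 0.00721) and 1.29 ± 0.13 at 24 h (adjusted p = 0.000197), a 2.45-fold rise. Only 0.759% of the genes tested had a larger log2 fold change at 24 h. In RM9 tumors Gbp5 was low, at 1.35, 0.926, 0.707 and 2.05 TPM in the control mice, 1.39, 0.753, 0.496 and 1.37 TPM at 3 h, 0.649, 0.648, 0.828 and 0.440 TPM at 12 h and 2.54, 0.791 and 1.30 TPM at 24 h. These groups overlapped at every time, on a deposited coverage of 0.262 to 1.67 reads per base.

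Gbp2, which is recruited to pathogen vacuoles and is the most abundant of the 10, stood at 173, 228, 215 and 266 TPM in MC38 controls, 324, 189, 306 and 235 TPM at 3 h, 232, 227, 282 and 279 TPM at 12 h and 338, 323, 347 and 302 TPM at 24 h. Only the 24 h mice were separate from the controls. Its change at 24 h was 0.59 ± 0.16 (SE, adjusted p = 0.0238), and the call was lost under median-ratio scaling (adjusted p = 0.189), with FPKM (adjusted p = 0.131) and without MC38 control mouse 1 (adjusted p = 0.0723). RM9 levels of Gbp2 were 21.4, 26.6, 12.6 and 23.7 TPM in controls, 35.4, 16.6, 5.83 and 36.6 TPM at 3 h, 10.6, 13.6, 15.3 and 7.47 TPM at 12 h and 20.2, 17.7 and 14.8 TPM at 24 h. The 3 h mice spanned the widest range of the 4 groups, and all groups overlapped with the controls.

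Gbp3, which lies near Gbp2 on chromosome 3, stood at 90.0, 127, 153 and 139 TPM in MC38 controls, at 183, 145, 173 and 193 TPM at 3 h, at 173, 161, 173 and 184 TPM at 12 h and at 245, 226, 237 and 240 TPM at 24 h. It rose at 12 h (log2 0.47 ± 0.13 SE, adjusted p = 0.0227) and at 24 h (0.92 ± 0.13, adjusted p = 0.000796). Gbp7, reported to help assemble the oxidative burst complex, went from 22.8, 34.6, 47.2 and 41.0 TPM in controls to 58.0, 46.1, 55.1 and 68.1 TPM at 3 h, 56.2, 55.9, 58.9 and 61.0 TPM at 12 h and 82.3, 76.6, 49.5 and 64.5 TPM at 24 h. Its rise was called at 12 h (0.71 ± 0.20, adjusted p = 0.0199) and 24 h (0.92 ± 0.20, adjusted p = 0.00761), and its 24 h range overlapped with the 12 h and 3 h ranges. RM9 values of Gbp3 ran from 5.11 to 10.1 TPM in controls, 2.36 to 9.76 at 3 h, 2.98 to 5.85 at 12 h and 5.72 to 8.16 TPM at 24 h. Those of Gbp7 ran from 2.05 to 3.23 TPM in controls, 1.12 to 3.86 at 3 h, 1.05 to 1.93 at 12 h and 1.61 to 3.30 TPM at 24 h, so that only its 12 h mice lay wholly below the controls.

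On chromosome 5, Gbp4 and Gbp6 were the least abundant members in MC38 and were called there only at 24 h. Gbp4 stood at 9.21, 15.9, 12.3 and 15.0 TPM in MC38 controls, 13.9, 11.3, 14.6 and 13.5 TPM at 3 h, 11.2, 13.3, 19.6 and 13.6 TPM at 12 h and 25.1, 21.2, 19.7 and 20.6 TPM at 24 h. Gbp6 stood at 12.3, 15.0, 20.0 and 19.4 TPM in controls, 20.97, 16.1, 23.2 and 23.0 TPM at 3 h, 20.0, 21.4, 20.1 and 18.1 TPM at 12 h and 37.0, 32.3, 33.8 and 30.5 TPM at 24 h. The 24 h mice were above all other MC38 mice for both genes, with log2 changes of 0.73 ± 0.18 for Gbp4 (SE, adjusted p = 0.0153) and 1.00 ± 0.15 for Gbp6 (adjusted p = 0.0009). At 3 h and 12 h Gbp4 differed from control by 0.05 and 0.14 on the log2 scale, and both values turned negative under median-ratio scaling and with FPKM. In RM9 the levels ran from 0.297 to 1.62 TPM for Gbp4 and from 0.432 to 2.22 TPM for Gbp6 over all 15 mice. Reads of Gbp6 could not be assigned to 1 locus, as 99.4% and 67.3% of the 75-base windows in the transcripts of its 2 rows also occur in other genes' transcripts, mostly in those of each other (89.9% and 61.7%).

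Among the regulatory IRGs, Irgm2, a Golgi-bound regulator, had the largest fold change in MC38 at 12 h and 24 h. It stood at 38.8, 56.3, 70.5 and 62.4 TPM in MC38 controls, at 81.1, 62.9, 83.5 and 94.9 TPM at 3 h, at 79.3, 82.2, 87.1 and 89.6 TPM at 12 h and at 129, 110, 109 and 111 TPM at 24 h. The rise was called at 12 h (log2 0.60 ± 0.16 SE, adjusted p = 0.0174) and at 24 h (1.03 ± 0.16, adjusted p = 0.0009). Igtp, the regulator of the endoplasmic reticulum also named Irgm3, stood at 108, 157, 167 and 160 TPM in MC38 controls, 222, 163, 205 and 227 TPM at 3 h, 175, 173, 196 and 187 TPM at 12 h and 269, 217, 271 and 216 TPM at 24 h. Its 12 h mice were all above the controls without passing the test (0.32 ± 0.14, adjusted p = 0.0837), and its rise at 24 h was called (0.73 ± 0.14, adjusted p = 0.00426). Irgm1, the regulator whose loss disturbs autophagy and blood cell survival, stood at 114, 182, 203 and 185 TPM in controls, 211, 156, 210 and 210 TPM at 3 h, 182, 193, 209 and 231 TPM at 12 h and 252, 228, 256 and 240 TPM at 24 h. Its change at 24 h was the smallest of the 10 (0.55 ± 0.15, adjusted p = 0.0274) and its call was lost under median-ratio scaling (adjusted p = 0.0653), with FPKM (adjusted p = 0.0513) and without MC38 control mouse 1 (adjusted p = 0.0519). Igtp and Irgm2 shared 7.80% and 4.53% of their 75-base windows with each other, so a small part of their reads cannot be told apart.

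Iigp1, the effector IRG also named Irga6 that oligomerizes on vacuole membranes, stood at 49.4, 68.1, 77.0 and 76.8 TPM in MC38 controls, 87.3, 64.2, 84.8 and 87.0 TPM at 3 h, 78.2, 72.3, 92.3 and 90.1 TPM at 12 h and 149, 118, 121 and 119 TPM at 24 h. It was called only at 24 h (log2 0.91 ± 0.15 SE, adjusted p = 0.00142), when every mouse stood above every other MC38 mouse. In RM9 it stood at 4.82, 6.30, 3.80 and 7.37 TPM in controls, 8.57, 4.29, 1.34 and 7.85 TPM at 3 h, 2.90, 4.24, 3.83 and 1.53 TPM at 12 h and 7.27, 5.24 and 5.47 TPM at 24 h. The RM9 groups overlapped with the controls at every time. The 3 regulatory genes behaved alike in RM9, with Irgm1 at 9.95 to 18.7 TPM in controls, 5.19 to 18.7 at 3 h, 5.49 to 12.0 at 12 h and 14.5 to 20.0 TPM at 24 h. Irgm2 stood there at 2.83 to 4.85, 1.26 to 4.99, 1.44 to 3.83 and 3.85 to 6.44 TPM, and Igtp at 6.54 to 13.5, 2.69 to 12.6, 3.37 to 8.08 and 9.33 to 14.2 TPM, in the same order of groups.

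The earlier MC38 times were less clear than 24 h. At 3 h none of the 10 genes was called higher by limma, where 0.0510% of all genes were, while 6 of 10 had an unadjusted p under 0.05, against 20.0% of all genes. Gbp5 alone had separate ranges, against 7.21% of all genes lying wholly higher. The changes ran from 0.05 (Gbp4) to 0.67 (Gbp7), and without MC38 control mouse 3 the calls rose to 4 (Gbp3, Gbp5, Gbp7 and Irgm2). At 12 h, 4 of 10 genes were called (Gbp3, Gbp5, Gbp7 and Irgm2) and 5 had separate ranges, against 28.6% of all genes called higher and 34.5% wholly higher. The median of the 10, 0.32, was no larger than that of all genes, 0.33, so at this time the members as a whole did not stand apart from the shift of all genes. Under median-ratio scaling only Gbp5 was still called (log2 0.34, adjusted p = 0.0373) and 6 of the 10 values turned negative. With FPKM Gbp5 and Irgm2 were called, and without MC38 RT 12 h mouse 4 Gbp5 alone was.

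The MC38 RT 24 h mice all stood above the 12 h mice in 8 of 10 genes, against 4.96% of all genes, the exceptions being Gbp7 and Irgm1. They all stood above the 3 h mice in 7 of 10, against 6.05% of all genes, the exceptions being Gbp2, Gbp7 and Igtp. The 12 h and 3 h ranges overlapped for all 10. Group means in MC38 were highest at 24 h for each of the 10 genes.

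**Figure D2:**
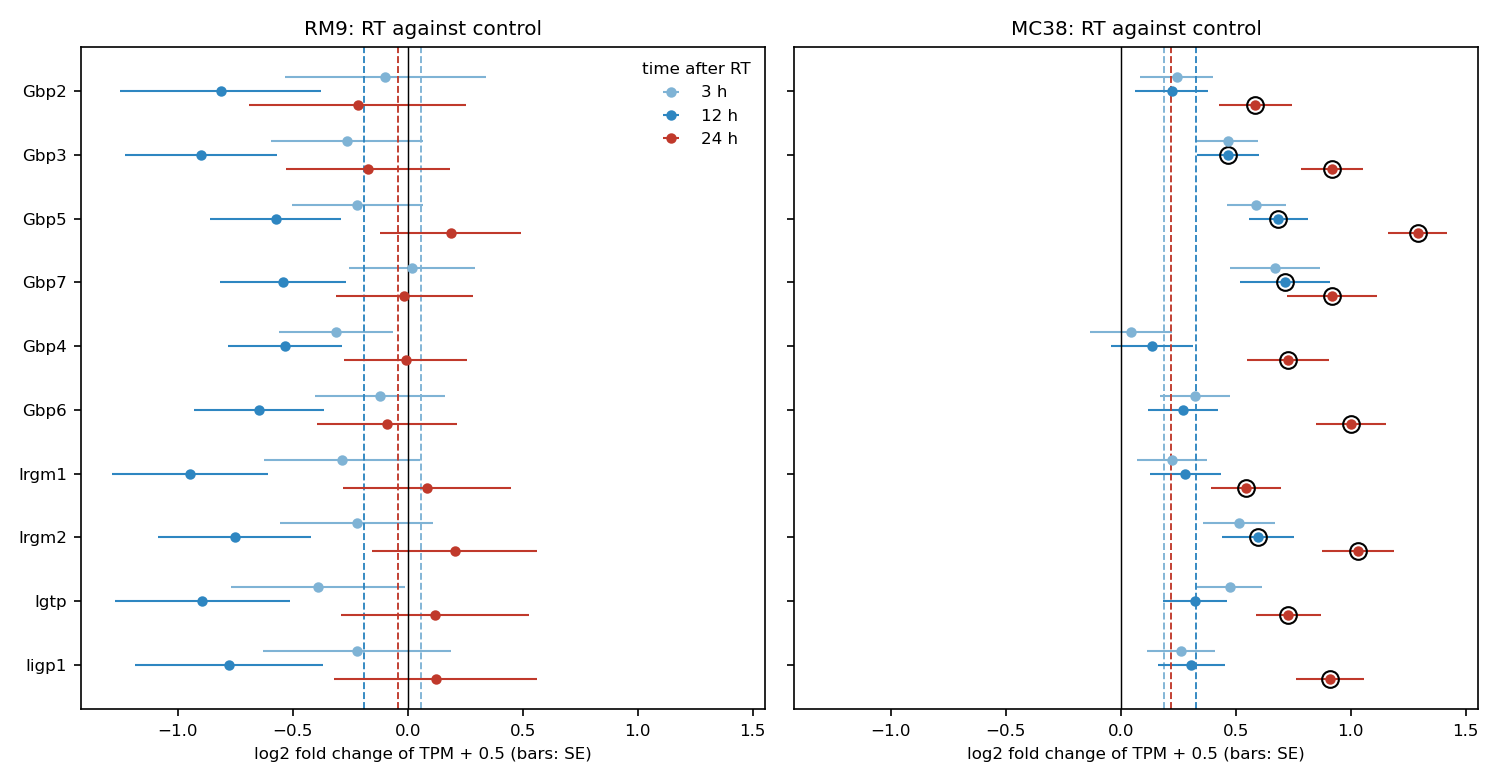
Log2 fold change of TPM + 0.5 for RT against control in RM9 (left) and MC38 (right), with SE bars, colored by time; circled points passed the adjusted p threshold and dashed lines mark the median of all genes tested. In MC38 all 10 points at 24 h are circled and lie beyond the dashed line of 0.22, and in RM9 no point is circled.

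In RM9 tumors, at 3 h, 0 of 10 genes passed limma at the adjusted threshold, where 0.229% of all genes did, and 0 of 10 had an unadjusted p under 0.05, against 21.8% of all genes. The changes at 3 h ran from -0.39 ± 0.38 (SE) for Igtp to 0.02 ± 0.27 for Gbp7. Mouse 3 of this group was lowest for all 10 genes, and without it the value of Igtp became 0.07. At 24 h, 0 of 10 passed, as did 0% of all genes, and 0 of 10 had an unadjusted p under 0.05, against 4.84%. The changes at 24 h ran from -0.22 ± 0.47 for Gbp2 to 0.20 ± 0.36 for Irgm2, with 5 positive and 5 negative.

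The 12 h group was the lowest in RM9. All 10 genes had a lower mean than in the controls, with log2 differences between -0.53 ± 0.25 (SE) for Gbp4 and -0.95 ± 0.34 for Irgm1 and a median of -0.76 beside -0.19 over all genes. None of these passed limma after adjustment (adjusted p from 0.0809 for Irgm1 to 0.213 for Gbp2), where 8.38% of all genes were called and 8.31% were called lower. An unadjusted p under 0.05 was found for 6 of 10, against 31% of all genes. Gbp6 and Gbp7 had all irradiated mice below all controls, against 19.4% of all genes. Without RM9 control mouse 3, which was the lowest control for 9 of the 10 genes, Irgm1 passed (adjusted p = 0.0491). Summed over the 10 genes the RM9 groups stood at 71.4 ± 18.5 (control), 68.5 ± 35.4 (3 h), 38.4 ± 12.2 (12 h) and 69.6 ± 14.1 TPM (24 h), as mean ± SD with n = 4, 4, 4 and 3.

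The change with RT was then compared between the models as a difference of log2 fold changes, MC38 minus RM9. All 10 differences were positive at each time. At 12 h, 7 of 10 were called (Gbp3, Gbp5, Gbp6, Gbp7, Igtp, Irgm1 and Irgm2), where 42.8% of all genes were called higher, and the values ran from 0.67 ± 0.31 (SE) for Gbp4 to 1.36 ± 0.37 for Gbp3, with a median of 1.22 beside 0.49 over all genes. This count depended on scaling, as 2 were called on TPM without mitochondrial genes and 0 under median-ratio scaling or with FPKM, where the medians of the 10 were 0.71 and 0.77 beside 0.02 and 0.08 over all genes. The 42.8% belongs to deposited TPM. The share of all genes called under the other scalings is not given here, so these counts cannot be set against it. At 3 h limma called 0 of 10, as it did 0% of all genes, and 1 of 10 had an unadjusted p under 0.05 (Gbp5), against 9.81%. The 3 h differences ran from 0.34 (Gbp2) to 0.86 (Igtp). At 24 h it called 0 of 10, where 2.23% of all genes were called higher, and 6 of 10 had an unadjusted p under 0.05, against 21.7%. Those differences ran from 0.46 ± 0.40 for Irgm1 to 1.11 ± 0.33 for Gbp5 (adjusted p = 0.0689). A difference between the models at 24 h was therefore not shown for any of the 10.

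**Figure D3:**
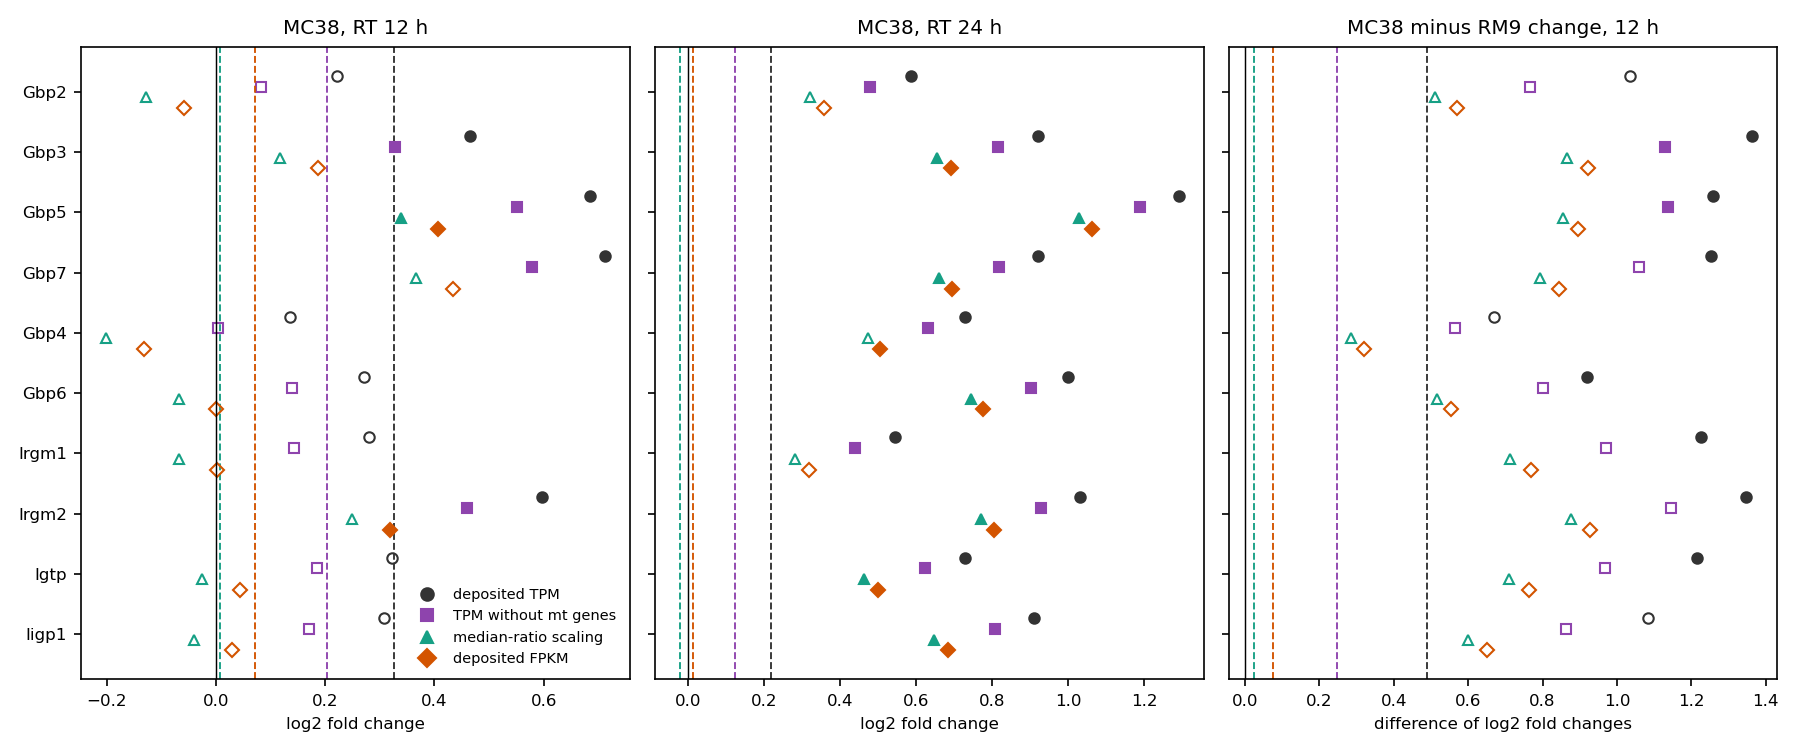
Log2 fold changes of the 10 genes in MC38 at 12 h and 24 h and the MC38 minus RM9 difference at 12 h, under 4 scalings; filled markers passed the adjusted p threshold and dashed lines mark the median of all genes under the same scaling. At 24 h all markers lie to the right of their dashed lines, whereas at 12 h in MC38 the markers fall on both sides.

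Other genes of both families were called mainly in MC38 at 24 h. Of 16 further GBP and IRG genes, 15 were tested in MC38, and 9 were called higher at 24 h, where 13.2% of all genes were. Tgtp2 and Tgtp1, near-identical effector IRGs whose reads are uncertain between the copies, rose by 1.08 ± 0.16 and 1.10 ± 0.16 on the log2 scale (SE, adjusted p = 0.000735 and 0.000823). Gvin1, a very large interferon-inducible GTPase, rose by 0.98 ± 0.16 (adjusted p = 0.00143) and Gm12250, the effector IRG also named Irgb10, by 0.82 ± 0.14 (adjusted p = 0.00234). None of the 15 was called at 3 h or 12 h, where 0.0510% and 28.6% of all genes were called higher. In RM9, 1 of 10 tested was called lower at 12 h, near the 8.31% of all genes called lower there. It was Ifi47, an IRG with a change of -1.09 ± 0.28 (adjusted p = 0.0338). At baseline, of the 10 genes that passed the filter in both models, 9 were called higher in MC38, where 64.5% of all genes were, with Gm12250 at 68.3 ± 13.4 TPM against 2.21 ± 0.703 TPM in RM9 (SD, n = 4 each), and Irgq was the 1 called lower, where 10.8% of all genes were.

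The interferon ligands were low, and Ifnb1 was the 1 called after RT. Ifnb1, a type I interferon, stood at 0.663, 0.616, 1.01 and 0.443 TPM in MC38 controls, 1.56, 1.16, 1.27 and 1.88 TPM at 3 h, 1.83, 1.46, 1.41 and 1.83 TPM at 12 h and 7.39, 2.40, 4.33 and 3.39 TPM at 24 h. Every irradiated mouse stood above every control at all 3 times, and the rise was called at 12 h (log2 0.86 ± 0.25 SE, adjusted p = 0.0231) and 24 h (1.97 ± 0.25, adjusted p = 0.000355). In RM9 the gene did not pass the filter, with no library above 0.0840 TPM. Ifng, made by T and NK cells, stood at 1.83, 1.91, 1.06 and 2.69 TPM in MC38 controls and at 1.72, 2.15, 2.09 and 1.82 TPM at 24 h, with no call at any time, and at 0 to 0.298 TPM in RM9. Ifna4 was under the filter in both models, Ifnl2 was listed at 0 in every library, and Ifnl3 reached a mean of 0.0497 TPM in MC38 at 24 h.

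Downstream of the ligands, most of the listed signaling genes were called higher in MC38 at 24 h and at baseline. Of 9 JAK-STAT and IRF genes, 6 were called higher at 24 h, where 13.2% of all genes were. Among the 6 were Irf2 (log2 0.61 ± 0.12 SE, adjusted p = 0.005), Jak2 (0.51 ± 0.13, adjusted p = 0.0167) and Stat2 (0.83 ± 0.21, adjusted p = 0.0184). At 12 h 2 of 9 were called in MC38, a smaller share than the 28.6% of all genes called higher, Irf2 (0.45 ± 0.12, adjusted p = 0.0189) and Jak1 (0.51 ± 0.14, adjusted p = 0.0195), and at 3 h none. In RM9 at 12 h 1 of 9 was called lower, where 8.31% of all genes were, the myeloid factor Irf8 (-0.51 ± 0.14, adjusted p = 0.0464). At baseline 8 of 9 were called higher in MC38, where 64.5% of all genes were, with Irf1, the inducer of many GBPs, at 164 ± 36.5 TPM against 18.2 ± 3.04 TPM in RM9 (SD, n = 4 each, adjusted p = 1.21e-13).

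Of 4 interferon receptor chains 1 was called higher at 24 h in MC38, Ifngr2 (log2 0.36 ± 0.10 SE, adjusted p = 0.0291), where 13.2% of all genes were. In RM9 at 12 h 1 was called lower, Ifngr1 (-0.37 ± 0.11, adjusted p = 0.0475), where 8.31% of all genes were. At baseline 2 were called higher in MC38, Ifngr1 and Ifnar2 (both 0.78), a smaller share than the 64.5% of all genes and beside an all-gene median of 0.62. Of 4 brakes, Usp18, which blocks type I receptor signaling, and Socs3, a JAK inhibitor, rose at 24 h in MC38 (1.03 ± 0.18 and 0.45 ± 0.13, adjusted p = 0.00218 and 0.0279), where 13.2% of all genes were called higher. The phosphatase gene Ptpn2 was the 1 of 4 called lower in RM9 at 12 h (-0.42 ± 0.09, adjusted p = 0.0244), where 8.31% of all genes were. All 4 brakes were called higher at baseline in MC38, where 64.5% of all genes were, though Socs3 turned under median-ratio scaling (-0.02).

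The partners through which GBPs act on inflammasomes did not move as 1 group. Casp4, the LPS sensor also known as caspase-11, and Casp1 rose at 24 h in MC38 (log2 1.09 ± 0.19 SE and 0.70 ± 0.16, adjusted p = 0.00232 and 0.0109) and at 12 h (0.53 ± 0.19 and 0.56 ± 0.16, adjusted p = 0.0457 and 0.022). Of all genes, 13.2% were called higher at 24 h and 28.6% at 12 h. Pycard, the inflammasome adaptor, and Nlrp3, an inflammasome sensor, were called lower at 12 h (-1.28 ± 0.27 and -0.48 ± 0.17, adjusted p = 0.00995 and 0.0437), where 2.60% of all genes were called lower. The other 2 of the 6, Gsdmd and Aim2, were not called in MC38 after RT. In RM9 0 of 6 were called at any time, where 0.229% of all genes were at 3 h, 8.38% at 12 h and 0% at 24 h. At baseline 5 of 6 were higher in MC38, where 64.5% of all genes were, with Casp4 and Casp1 at 3.17 ± 0.17 and 3.31 ± 0.20.

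Among 6 other interferon-gamma targets, Cxcl10, a T cell chemokine, and Cd274, which encodes PD-L1, rose at 24 h in MC38 (log2 0.99 ± 0.18 SE and 1.06 ± 0.21, adjusted p = 0.00328 and 0.00566), where 13.2% of all genes were called higher. At 12 h Nlrc5, the activator of MHC class I genes, was the 1 of 6 called higher (0.79 ± 0.28, adjusted p = 0.0451), where 28.6% of all genes were. Cxcl9 was called lower (-0.63 ± 0.20, adjusted p = 0.0315), where 2.60% of all genes were. No gene of this list was called in RM9 after RT, where 0.229% of all genes were at 3 h, 8.38% at 12 h and 0% at 24 h. At baseline all 5 that passed the filter in both models were called higher in MC38, where 64.5% of all genes were. Cxcl10 had a log2 difference of 4.77 ± 0.36 there.

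The genes whose pattern was most like that of the members were interferon-inducible too. The other genes with a mean of at least 1 TPM in both models numbered 12240. Their correlation with the mean of the 10 centered members was taken within each model, as a description over libraries that share their scaling. Centering was on the model mean, so differences between the groups are part of every r given here. The top 10 by the lower of both values were Gm12250 (r = 0.97 over the 15 RM9 libraries and 0.97 over the 16 MC38 libraries), Tgtp2, Parp9, Tgtp1, Parp14, Herc6, Ube2l6, Tap1, Samd9l and Zbp1 (r = 0.93 and 0.90). Between the members themselves, r within a model had a median of 0.87 over 45 pairs in RM9, the lowest being 0.70 for Gbp2 with Gbp5, and 0.88 in MC38, the lowest being 0.63 for Gbp4 with Gbp7.

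Some markers of T cells and macrophages were called lower in MC38 tumors, more of them at 12 h than at 24 h. At 12 h 6 of 8 T cell markers and 5 of 7 macrophage markers were called lower in MC38, where 2.60% of all genes were. At 24 h 3 and 1 were called lower, where 0.548% of all genes were. The macrophage markers summed to 814 to 1306 TPM in MC38 controls, 564 to 892 at 3 h, 294 to 704 at 12 h and 651 to 812 TPM at 24 h, and the T cell markers to 20.0 to 30.9, 12.7 to 23.8, 10.7 to 22.1 and 9.63 to 19.0 TPM. For NK and cytotoxic markers 1 of 7 was called lower at 12 h (Klrk1) and 1 higher at 24 h (Gzmb), and 2 of 5 endothelial markers were called higher at 24 h (Kdr and Cdh5). At 24 h 13.2% of all genes were called higher. Neutrophil markers gave no call in MC38 after RT. In RM9 at 12 h, when the members had their lowest means, 5 of 7 macrophage markers and 3 of 4 tested T cell markers were called lower, where 8.31% of all genes were. The macrophage sum was 185 to 368 TPM there against 377 to 594 TPM in controls. At baseline 3 of 4 T cell, 5 of 5 NK and cytotoxic and 6 of 7 macrophage markers that passed the filter in both models were called higher in MC38, where 64.5% of all genes were. The part of these cells in the levels of the members was not tested.

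**Figure D4:**
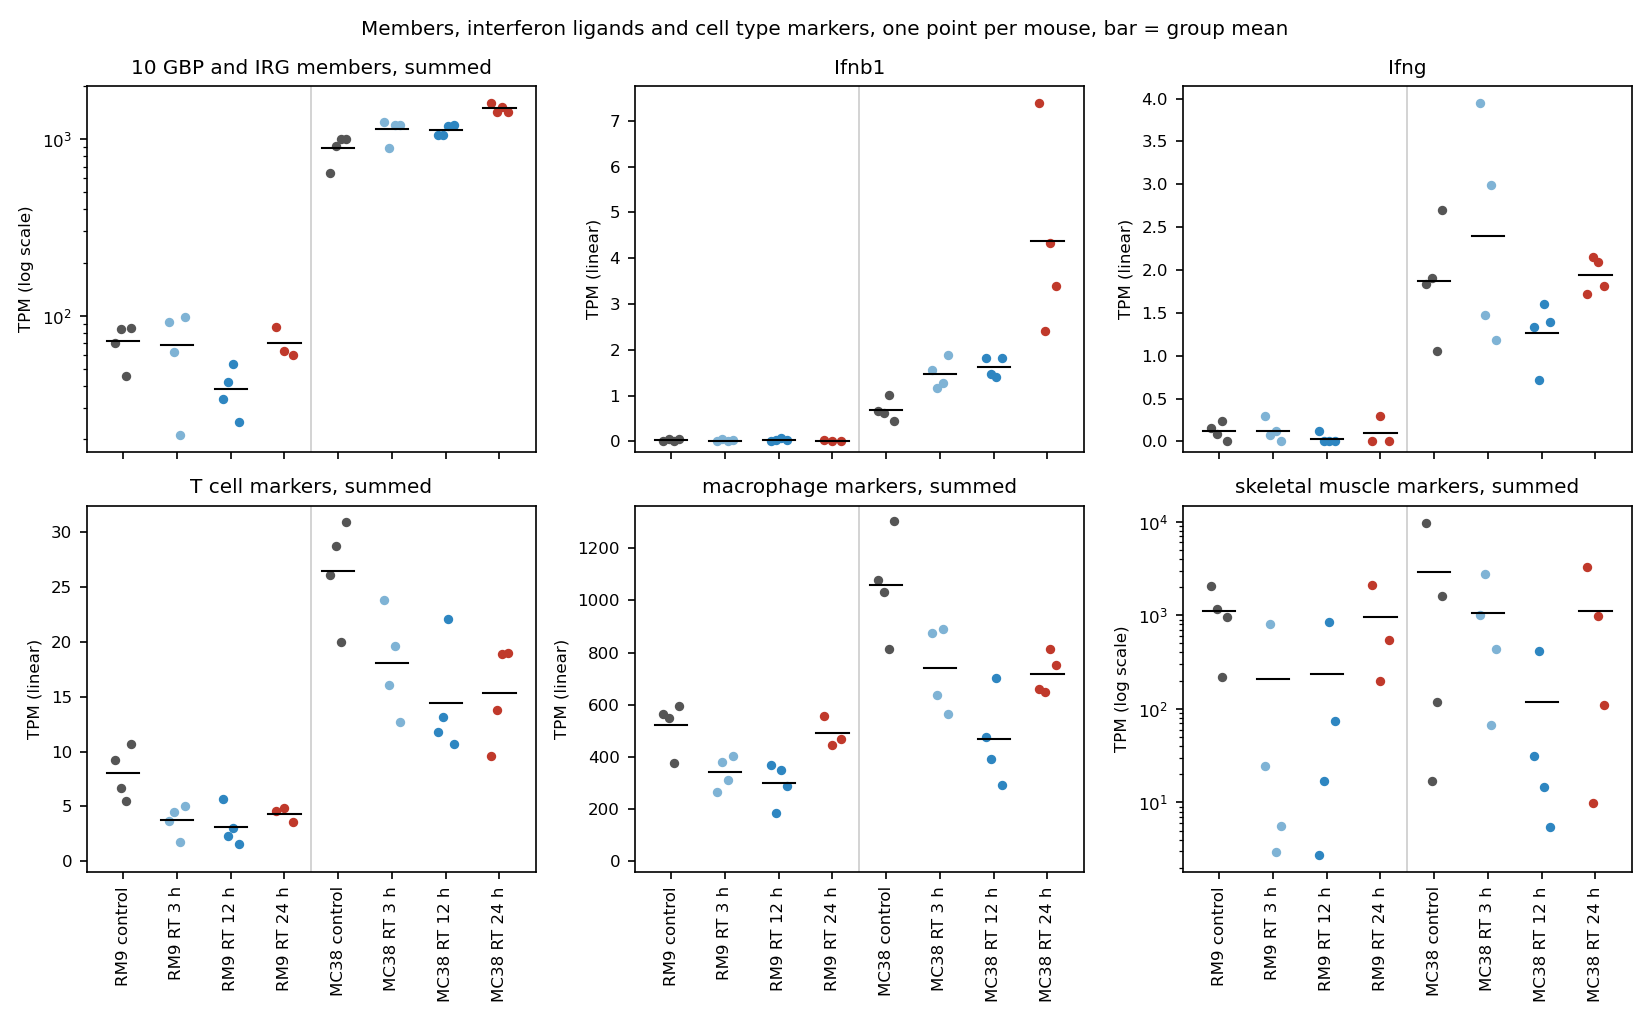
TPM per mouse of the 10 members summed, Ifnb1, Ifng and the summed markers of T cells, macrophages and skeletal muscle, by group, with bars at group means; the members and muscle panels have log axes. In MC38 the summed members and Ifnb1 are highest at 24 h, while the T cell and macrophage sums have their highest means in the controls.

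The tumor labels were checked against markers of their tissue. RM9 held epithelial markers at 669 to 1526 TPM summed over 5 genes, whereas in MC38 they summed to 0.553 to 1.56 TPM, with Epcam and Krt19 at 0 in all 4 mice at 24 h. The prostate markers Pbsn and Tmprss2 were at 0 in all groups of both models, and the colon markers Cdx1 and Cdx2 were at 0 in all MC38 groups, so these organ markers were not detected in the model labelled for that organ. The source of skeletal muscle RNA in these tumors, implanted at the leg, was not tested. Skeletal muscle markers ranged from 2.75 to 9783 TPM summed over 5 genes. The highest value was in MC38 control mouse 1, which also had the highest mt-Nd4l share of MC38 (29.6%) and was the lowest control for all 10 members. Without it, 8 of 10 members were called higher in MC38 at 24 h and 3 at 12 h.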

How the data were processed

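RNA-seq was analysed in 31 tumors, 1 library per mouse, grouped by model and time after RT from the labels. Poly(A) RNA was sequenced with a stranded kit as 75-base single reads. The submitters' processing notes name bcl2fastq 2.17 and GRCm39, whereas 91.1% of the gene IDs shared with GENCODE M21 have the start or end of its GRCm38 coordinates. The aligner and quantifier are not given in the sources used here. The authors deposited TPM and FPKM values per gene and library, with no read counts, so no count test was run. The deposited coverage, the mean reads per base, was used only for depth and for the ratio to FPKM.

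TPM was summed by gene name and analysed as log2(TPM + 0.5) in limma 3.58.1 (R 4.3.3) with an intensity trend, over genes with a mean of at least 0.5 TPM, with Benjamini-Hochberg adjustment over all genes tested. RT groups were fitted within each model, and the baseline and the differences between models in a joint fit of all groups. The steps were tested on simulated data. Fold changes are on the TPM + 0.5 scale and SE is the moderated standard error. The p-values measure the spread between mice. All 10 genes are named, with at most 4 called genes per list and comparison by smallest p. Members and lists were chosen with earlier results of these data known. Listed alternatives covered the pseudocount, the filter, scaling, the variance prior, the samples fitted, a replicate block and leaving out each mouse. FPKM in place of TPM and single gene IDs were added after seeing the data. The labels tie mouse numbers to no shared animal or day.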

Additional observations from a re-analysis of the deposited data

Results flagged for a closer look

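In 4 of the 70 combinations of gene and group of 4 mice that were tested, 1 mouse lay far from the other 3 by Dixon's criterion, which chance flags in about 1 in 20. In MC38 RT 3 h, mouse 2 was low for Irgm1 (156 TPM, others 210 to 211 TPM) and for Iigp1 (64.2 TPM, others 84.8 to 87.3 TPM). In MC38 RT 24 h, mouse 1 was high for Irgm2 (129 TPM, others 109 to 111 TPM) and for Iigp1 (149 TPM, others 118 to 121 TPM). The same 2 mice were the lowest of their group for 10 of the 10 genes and the highest for 7 of the 10.

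The change with RT at 12 h differed between the models, MC38 minus RM9, by the interaction term of limma for 7 of the 10 genes, where 42.8% of all genes were called higher. The log2 differences were 1.36 for Gbp3, 1.26 for Gbp5, 1.25 for Gbp7, 0.92 for Gbp6, 1.23 for Irgm1, 1.35 for Irgm2 and 1.22 for Igtp. The number called fell to 0 under median-ratio scaling and with FPKM, for which the share of all genes called is not given here.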

How the results depend on the processing

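The counts of members called at baseline (10 of 10), in the difference at 3 h (0), and in RM9 at 3 h and 24 h (0 each) were the same under every alternative that kept all members. Requiring a mean of at least 5 TPM left 4 members in the RM9 fits. In MC38 at 3 h the count went from 0 to 1 without mitochondrial genes and to 1 with FPKM, and from 0 to 4 over the fits that leave out 1 mouse (4 without control mouse 3). In MC38 at 12 h the count of 4 became 1 under median-ratio scaling, 1 with only the compared groups fitted and 2 with FPKM, and ran from 1 to 5 when 1 mouse was left out. In MC38 at 24 h the count of 10 became 5 with only the compared groups fitted and 7 under median-ratio scaling, and ran from 8 to 10 when 1 mouse was left out. In RM9 at 12 h that range was 0 to 1. The difference at 12 h, 7 members, became 0 under median-ratio scaling, 2 without mitochondrial genes and 0 with FPKM, with a range of 5 to 9 when 1 mouse was left out, and the difference at 24 h, 0 members, became 2 with a pseudocount of 1, with a range of 0 to 2 when 1 mouse was left out (2 without MC38 control mouse 3, 1 without RM9 RT 24 h mouse 1). The share of all genes called under each alternative is not given here, so these counts cannot be set against it. The cause of these changes was not tested.

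Directions turned for several values, not only for those near 0. At 3 h in RM9, Gbp7 (log2 0.02) was -0.040 under median-ratio scaling, -0.025 with FPKM and -0.17 to 0.31 when 1 mouse was left out, and Igtp (-0.39) was -0.61 to 0.072. At 3 h in MC38, Gbp4 (0.05) was -0.16 under median-ratio scaling, -0.037 without mitochondrial genes, -0.10 with FPKM and -0.11 to 0.15 when 1 mouse was left out. At 12 h in MC38, the genes that turned under median-ratio scaling had stood between 0.14 (Gbp4) and 0.32 (Igtp). That scaling gave -0.13 for Gbp2, -0.20 for Gbp4, -0.068 for Gbp6, -0.026 for Igtp, -0.068 for Irgm1 and -0.040 for Iigp1. FPKM gave -0.059 for Gbp2, -0.13 for Gbp4 and -0.00030 for Gbp6. Gbp4 ran from -0.017 to 0.24 there when 1 mouse was left out, and the 3 h difference of Gbp2 (0.34) from -0.20 to 0.65. Socs3 at baseline (0.64) was -0.017 under median-ratio scaling. Of the listed genes' values, 1278 kept their side of the threshold, 229 called values no longer passed and 1 turned.

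With the mouse number as a replicate block the counts stayed at 4 in MC38 at 12 h, 10 at 24 h and 7 for the difference at 12 h, and no other count changed. Each library came from a different mouse, so the numbers do not mark the same animal. Of 23 same-numbered pairs of groups, 9 correlated above 0.1 (r from -0.484 to 0.557). These values cannot decide whether equal numbers share a day, as differently numbered mice were not compared.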

Other observations

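Values of Ifna4, a type I interferon below the filter, were 1.75, 0.488, 0.713 and 0.573 TPM in the MC38 RT 24 h mice, against 0.0172 to 0.542 TPM in MC38 controls, and the highest of them was mouse 1, which also had the highest Ifnb1 (7.39 TPM) and the highest level of 7 of the 10 members. The groups overlapped for Ifna4.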
